A study of Mus musculus with 9 samples.

Results

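The genes described here are those of adult hemoglobin and of its heme supply in 9 mouse testes at 3 weeks of age: Hba-a1 and Hba-a2, which encode α-globin, Hbb-bs and Hbb-bt, which encode β-globin, and Alas2, which encodes the erythroid form of the first enzyme of heme synthesis. They are 5 of the 22337 genes of the deposited table and were picked by symbol. They were chosen by their lower mean level in KI-KI than in WT-WT testes of these same libraries, so that contrast is given below as a description, without a test. The 4 globins had that lower mean, which follows from how the genes were chosen and is no finding. Alas2 did not have it, and its mean level was higher in KI-KI testes.

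Whole testes were sequenced from 3 libraries of each of 3 genotypes: wild-type mice (WT-WT), mice with 1 R264W allele of Piwil4 (WT-KI, Piwil4 WT/R264W) and mice with both alleles changed (KI-KI, Piwil4 R264W/R264W). The allele, a missense change in a PIWI family gene of the male germ line, was knocked in by CRISPR-Cas9 in C57BL/6 zygotes and is therefore carried by every cell, blood cells included. Each library holds mRNA of all cells of a testis, and of any blood cells left in its vessels. Library totals ran from 17.96 to 24.28 M estimated counts. Piwil4 itself had 18 to 46 counts per library, and a count per gene does not show which allele it came from.

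Hemoglobin is a tetramer of α and β chains, each of which holds a heme. Red cell precursors make it in large amounts, and the circulating cells, which have no nucleus, still carry globin mRNA for a while after they leave the marrow. C57BL/6 mice carry the β-globin haplotype with the Hbb-bs and Hbb-bt genes. Alas2 is the erythroid counterpart of Alas1, which is active in nearly every tissue and supplies the heme of cytochromes, including those that make steroids in Leydig cells. In whole tissue, fewer red cells and less globin mRNA per red cell cannot be told apart.

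In GRCm38 (GENCODE M21), Hba-a1 (ENSMUSG00000069919) spans 32283511 to 32284465 of chromosome 11 (plus strand), and Hba-a2 (ENSMUSG00000069917) follows it at 32296489 to 32297298. Hbb-bs (ENSMUSG00000052305) spans 103826534 to 103828096 of chromosome 7 (minus strand), and Hbb-bt (ENSMUSG00000073940) 103812524 to 103813996. Alas2 (ENSMUSG00000025270) spans 150547375 to 150570638 of chromosome X (plus strand). The globin genes each have 3 exons, with a coding sequence of 426 bases for the α chains and 441 bases for the β chains, and Alas2 has 11 exons and 1761 coding bases. The genes of each pair are near copies. The coding sequences of Hba-a1 and Hba-a2 shared 425 of 426 bases, those of Hbb-bs and Hbb-bt shared 440 of 441, and an α and a β chain (Hba-a1 and Hbb-bs) shared 57.5% of aligned bases. Of the 150-base windows of the transcripts, the length of a read, 266 of 405 in Hba-a2 and 266 of 550 in Hba-a1 were identical in the twin, as were 281 of 479 in Hbb-bs and 281 of 554 in Hbb-bt.

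The 4 globin genes share promoter letters that Alas2 has only in part. The windows below are those of RefSeq (GRCm38.p6). They run from 250 bases before the gene's RefSeq start up to the first base of any coding transcript that GENCODE annotates. That base, where the spans given above begin, lies 161 (Hba-a1), 3 (Hba-a2), 168 (Hbb-bs), 73 (Hbb-bt) and 42 (Alas2) bases before the RefSeq start. Distances below are to the RefSeq start, so matches nearer to it than these lie inside the spans. A link between these letters and the levels across testes was not tested. Capitals mark GATAA (the core of a site for GATA factors such as GATA1), CACCC (the box bound by KLF factors such as KLF1), the CCAAT box, and the TATA box as ATATAA, read on both strands. The Hba-a2 window is chr11:32296242-32296488 (plus strand), that of Hbb-bt is chr7:103813997-103814173 (minus strand) and that of Alas2 is chrX:150547167-150547374 (plus strand).
Hba-a2: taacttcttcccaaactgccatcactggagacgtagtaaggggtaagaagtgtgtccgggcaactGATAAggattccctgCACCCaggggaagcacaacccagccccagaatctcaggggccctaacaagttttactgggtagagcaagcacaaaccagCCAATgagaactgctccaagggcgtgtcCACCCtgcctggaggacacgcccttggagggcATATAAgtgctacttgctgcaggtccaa
Hbb-bt: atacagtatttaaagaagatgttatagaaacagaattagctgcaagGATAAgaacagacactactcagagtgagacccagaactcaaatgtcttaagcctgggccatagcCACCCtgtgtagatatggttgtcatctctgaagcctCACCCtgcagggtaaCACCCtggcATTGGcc
Alas2: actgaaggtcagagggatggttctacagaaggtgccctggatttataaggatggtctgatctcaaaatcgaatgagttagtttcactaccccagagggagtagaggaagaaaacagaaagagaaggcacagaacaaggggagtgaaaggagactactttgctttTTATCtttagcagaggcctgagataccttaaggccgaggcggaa
Hba-a1 carried the same 247 letters as Hba-a2 before the start, with no difference. In the full 250 bases, each of the 4 globin genes held all 4 motifs. Alas2 held GATAA, 86 bases before the start, and 3 CACCC boxes that begin 40, 35 and 30 bases before it, and held neither CCAAT nor ATATAA. The TATA box of the globins began 28 (Hba-a1), 31 (Hba-a2), 30 (Hbb-bs) and 29 (Hbb-bt) bases before the start, and their GATAA began 182, 185, 209 and 204 bases before it. No matches overlapped. Among 32851 such windows of all genes, 22.6% held GATAA, 52.0% CACCC, 33.8% CCAAT and 9.10% ATATAA. A match is a string of letters and no measured binding site.

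The twins share nearly all of their coding sequence, and their reads appear to have been split between them by estimation. The estimated counts of Hba-a1 and of Hba-a2 were not whole numbers in 9 of 9 libraries, and those of Hbb-bs and Hbb-bt in 7 of 9, with a tolerance of 0.02 counts. The sum of each pair was whole in 9 of 9. The levels of the single globin genes are therefore less certain than the α and β sums.

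Per length (FPKM, reads scaled by transcript length and by library size), the 5 genes stood in the same order in all 9 testes: Hbb-bs, Hba-a2, Hba-a1, Hbb-bt and Alas2. Over the 9 testes Hbb-bs averaged 126 ± 64.6 FPKM (SD, n = 9), Hba-a2 64.3 ± 33.6, Hba-a1 46.0 ± 23.6, Hbb-bt 21.6 ± 12.7 and Alas2 4.26 ± 1.40. The order held within every testis, while across testes the ranges of neighbouring globins in that order overlapped. The highest Alas2 value, 5.98 FPKM, lay below the lowest Hbb-bt value, 6.62 FPKM. The 4 globins together took between 0.00677% and 0.0355% of a library's counts.

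Hba-a1 and Hba-a2 supply the α chains. Hba-a1 read 39.0, 96.9 and 33.8 FPKM in WT-WT testes, 29.7, 49.3 and 63.7 in WT-KI testes and 53.5, 29.7 and 18.2 in KI-KI testes (replicates 1, 2 and 3 in each case). Hba-a2 read 52.5, 139 and 53.1 FPKM in WT-WT testes, 41.1, 73.4 and 82.8 in WT-KI testes and 72.7, 38.4 and 25.7 in KI-KI testes. Replicate 2 of WT-WT was the highest of the 9 for both genes and replicate 3 of KI-KI the lowest, and the ranges of the 3 genotypes overlapped. Hba-a1 made up between 38.9% and 43.6% of α-globin FPKM in every testis.

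Hbb-bs and Hbb-bt supply the β chains. Hbb-bs read 103, 265 and 94.96 FPKM in WT-WT testes, 71.9, 139 and 176 in WT-KI testes and 140, 87.4 and 54.6 in KI-KI testes. Hbb-bt read 15.6, 48.8 and 17.8 FPKM in WT-WT testes, 11.04, 26.5 and 30.5 in WT-KI testes and 23.7, 13.8 and 6.62 in KI-KI testes. The order of the testes was close to that of the α chains, with the same library at either end, and the genotypes again overlapped. Hbb-bt, the less abundant gene of the pair, made up between 10.8% and 16.0% of β-globin FPKM.

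**Figure D1:**
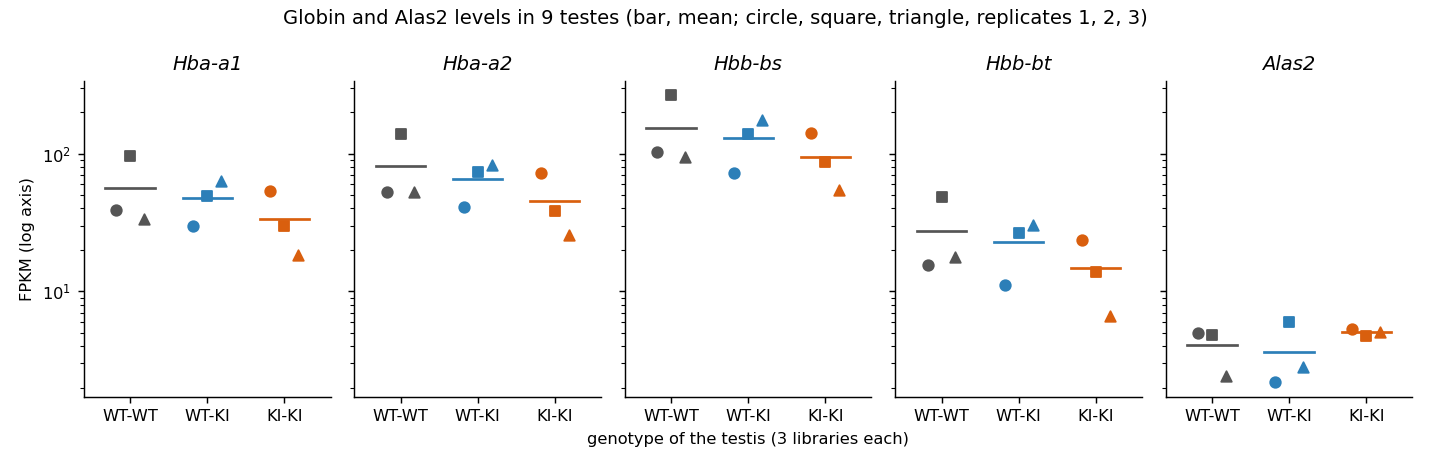
FPKM (log axis) of the 5 genes in each of the 9 testes by genotype, with a bar at the mean of 3 and a marker for each replicate. In the globin panels replicate 2 of WT-WT is the highest point and replicate 3 of KI-KI the lowest (265 and 54.6 FPKM for Hbb-bs), whereas Alas2 stays between 2.18 and 5.98 FPKM.

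Summed, the α and β chains were high and low in the same testes. The α sum was 61.9, 147 and 53.1 CPM (counts per 1 M, TMM-scaled) in WT-WT, 44.5, 77.3 and 88.8 in WT-KI and 78.3, 42.8 and 29.0 in KI-KI testes. The β sum was 83.1, 203 and 72.2 CPM in WT-WT, 54.0, 109 and 130 in WT-KI and 106, 65.7 and 41.9 in KI-KI testes. Across the 9 testes, log2 values of the α and β sums had a Pearson r of 0.99 and a Spearman rho of 0.97, and r was 0.97 without the 2 testes farthest from the median (WT-WT replicate 2 and KI-KI replicate 3). The ratio of β to α FPKM stayed between 1.17 and 1.49, while the summed globin level differed 4.94-fold between the lowest and the highest testis. Correlations here are descriptions over 9 libraries that share depth and scaling, and the near-identical genes of a pair also share reads.

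Alas2 followed another order of testes. It read 5, 4.8 and 2.41 FPKM in WT-WT testes, 2.18, 5.98 and 2.80 in WT-KI testes and 5.36, 4.72 and 5.07 in KI-KI testes. The low testes were replicate 3 of WT-WT and replicates 1 and 3 of WT-KI. The KI-KI values lay within the WT-KI range, and those of replicates 1 and 3 lay above the highest WT-WT value, 5 FPKM. The r of log2 CPM of Alas2 with single globin genes was 0.10 to 0.18, against 0.98 to 0.99 among the globins. With the globin sum it was 0.14, 0.36 without WT-WT replicate 2 and KI-KI replicate 3 and 0.40 for deviations from the genotype means. The ratio of globin to Alas2 FPKM ran from 20.7 in KI-KI replicate 3 to 126 in WT-KI replicate 3.

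**Figure D2:**
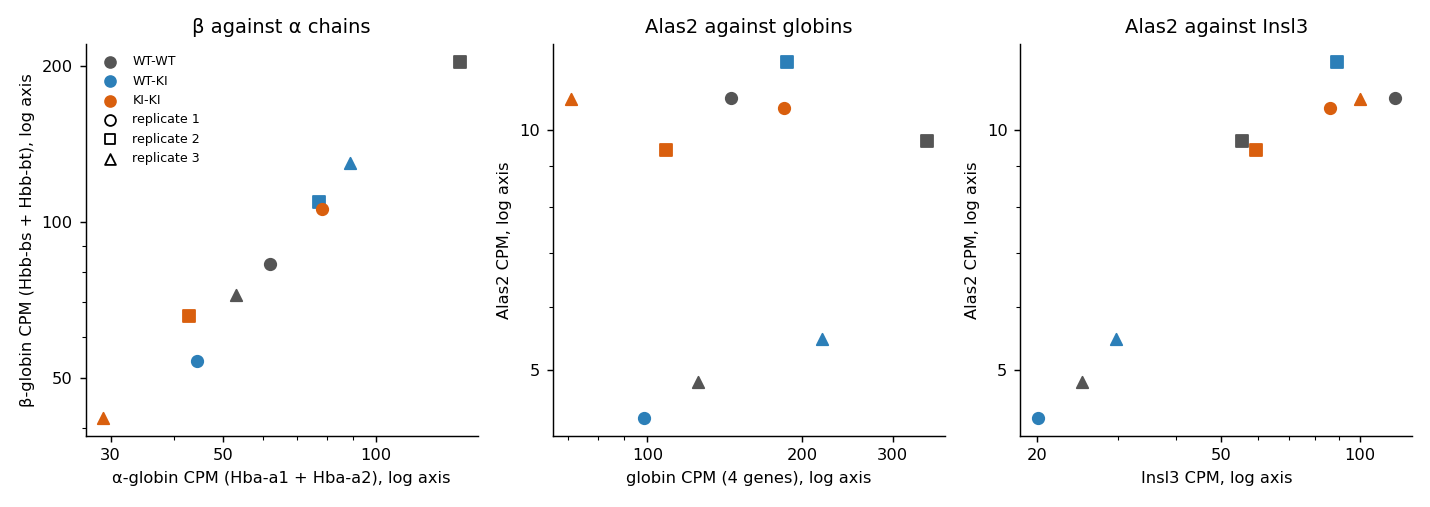
The 9 testes by CPM on log axes: summed β-globin against summed α-globin (left), Alas2 against the 4 globins (middle) and Alas2 against Insl3, a Leydig cell hormone (right), with colour for genotype and shape for replicate. The points follow a line at left (r = 0.99) and at right (r = 0.97), and scatter in the middle panel (r = 0.14). At right 3 testes lie apart at the low end, and the r over the other 6 was 0.745.

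The first comparison is that of homozygous with wild-type testes, on which the genes were selected. The 4 globins summed to 145, 350 and 125 CPM in WT-WT testes (207 ± 124, SD, n = 3) and to 184, 108 and 70.9 CPM in KI-KI testes (121 ± 57.6). The mean was 0.586 times as high in KI-KI, yet KI-KI replicate 1 lay above 2 of the 3 WT-WT testes. On the log2 scale, KI-KI was lower by 0.75 ± 0.51 (fitted log2 fold change of -0.75, ± SE) for Hba-a1, with -0.85 ± 0.50 for Hba-a2, -0.72 ± 0.48 for Hbb-bs and -0.91 ± 0.57 for Hbb-bt. Alas2 had 8.49 ± 3.23 CPM in WT-WT and 10.3 ± 0.797 CPM in KI-KI testes (log2 fold change 0.28 ± 0.30). The groups did not separate for any of the 5 genes, and 5.58% of the 15543 genes tested had groups that did not overlap in either direction.

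One library carried most of that gap. Without WT-WT replicate 2, the globin mean of WT-WT fell to 135 CPM, the ratio was 0.896 and the fitted log2 fold changes of the 4 globins lay between -0.24 and -0.10. Without KI-KI replicate 1 they lay between -1.41 and -1.11, and without KI-KI replicate 3 between -0.58 and -0.47. For Alas2 the log2 fold change was 0.0029 without WT-WT replicate 3. Over all 15543 genes the median log2 fold change was -0.01. The edgeR quasi-likelihood test called 0% of the genes tested at an adjusted p under 0.05 and 1.26% (196 genes) at an unadjusted p under 0.05, and DESeq2 called 1 gene at an adjusted p under 0.05.

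Heterozygous testes were compared with wild-type testes, a contrast that shares the 3 WT-WT libraries with the one that chose the genes. The 4 globins summed to 98.5, 187 and 219 CPM in WT-KI testes (168 ± 62.2, SD, n = 3), 0.812 times the WT-WT mean. The log2 fold changes were -0.29 ± 0.45 (SE) for Hba-a1, -0.35 ± 0.43 for Hba-a2, -0.30 ± 0.47 for Hbb-bs, -0.31 ± 0.53 for Hbb-bt and -0.22 ± 0.47 for Alas2, and none of the 5 passed the edgeR test (adjusted p = 0.9998 for each). None had groups that did not overlap, where 5.36% of 15413 genes did. Of all genes, edgeR called 0% at an adjusted p under 0.05 and 1.11% (171 genes) at an unadjusted p under 0.05, and DESeq2 called 0. Without WT-WT replicate 2 the direction turned for all 4 globins, whose log2 fold changes were then 0.28 to 0.40.

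Homozygous testes were compared with heterozygous ones, a contrast that shares the 3 KI-KI libraries with the first. The globin mean of KI-KI was 0.721 times that of WT-KI. The log2 fold changes were -0.47 ± 0.41 (SE) for Hba-a1, -0.50 ± 0.40 for Hba-a2, -0.43 ± 0.40 for Hbb-bs and -0.60 ± 0.51 for Hbb-bt, and that of Alas2 was 0.50 ± 0.38. None of the 5 passed the edgeR test (adjusted p = 0.948 for each), and none had groups that did not overlap, where 7.06% of 15463 genes did. Of all genes, edgeR called 0% at an adjusted p under 0.05 and 2.22% (343 genes) at an unadjusted p under 0.05, and DESeq2 called 5 genes at an adjusted p under 0.05. The globin values shrank to between -0.35 and -0.16 without WT-KI replicate 3 and to between -0.33 and -0.17 with the spermatid score described below as a covariate, and that of Alas2 was 1.08 without WT-KI replicate 2.

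**Figure D3:**
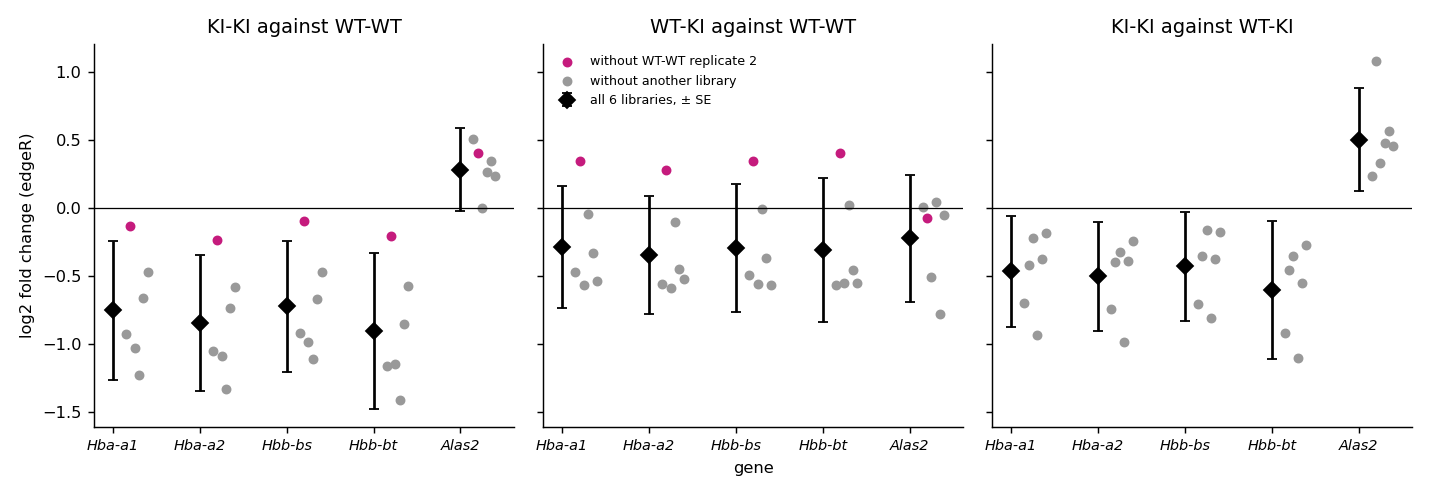
Log2 fold changes of the 5 genes in each pair of genotypes, with diamonds and bars for the fit of all 6 libraries ± SE and dots for fits without 1 library. Without WT-WT replicate 2 (coloured dots) the globins move to between -0.24 and -0.10 at left and to between 0.28 and 0.40 in the middle.

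The other genes of the red cell were searched for the same pattern. In the list of red cell membrane and skeleton genes 17 of 17 were in the table, 12 passed the count filter and 0 were called in any comparison at an adjusted p under 0.05. The median log2 fold change was 0.02 in KI-KI against WT-WT, -0.10 in WT-KI against WT-WT and 0.02 in KI-KI against WT-KI. Slc4a1 (band 3, the anion exchanger and most abundant protein of the red cell membrane) did not exceed 0.636 CPM and Epb42 0.112 CPM, and Rhag was at 0 in all 9 testes, where 3 counts, the limit that a count of 0 allows, correspond to between 0.124 and 0.167 CPM. These 3 genes were picked after their values were seen. Sptb, Epb41 and Gypc, which had the highest means of the list, are also made outside the red cell lineage. Sptb (β-spectrin) ranged from 29.4 to 37.0 CPM and Epb41 (protein 4.1) from 17.5 to 24.5 CPM, with r of -0.29 and 0.16 to the globin sum. The r of Slc4a1 with the globin sum was 0.77, and 0.92 without WT-WT replicate 2 and KI-KI replicate 3, from values of 0 to 0.636 CPM that lie near the floor.

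Late erythroid and cytosolic genes were led by genes of many tissues, and their summed CPM had an r of -0.41 to the globin sum (-0.22 without WT-WT replicate 2 and KI-KI replicate 3). Of 19 listed genes 18 were in the table, 15, 14 and 15 were tested, and 0 were called at an adjusted p under 0.05, with median log2 fold changes of -0.06, -0.06 and 0.01 in the order above. Its leading genes were Mkrn1, Tent5c, Ube2o and Bnip3l, at 666, 198, 121 and 114 CPM on average, all of which have uses outside red cells. In this list 15 genes reached 1 CPM in a testis. Car1, the carbonic anhydrase of red cells, was at 0 in all 9 testes, Trim58 did not exceed 0.0965 CPM and Trim10 did not exceed 0.649 CPM. These 3 genes were picked after their values were seen. Other genes of the list were higher: Car2 reached 3.66 CPM, Isg20 reached 15.4 CPM and Tfrc ranged from 45.4 to 73.2 CPM.

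Of the 11 listed factors and receptors of erythroid transcription, 6 reached 1 CPM in a testis. Klf1, the activator of adult β-globin, did not exceed 0.636 CPM, Tal1 0.653, Nfe2 0.358 and Gfi1b 0.145, and Epor, the erythropoietin receptor, 1.08. The choice of these 5 was made with their values in view. Zfpm1, the GATA cofactor, averaged 38.0 CPM, Gata1 24.4, Ldb1 23.6 and Bcl11a 11.8, and Gata1 is known to be active in Sertoli cells of the testis too. Gata1 ranged from 17.5 to 28.8 CPM with an r of 0.26 to the globin sum. In the order above 7, 6 and 6 of the 11 were tested and 0 were called at an adjusted p under 0.05, with median log2 fold changes of -0.09, 0.10 and -0.16.

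Of the other globin genes, 4 were at 0 in all 9 testes and 3 reached 1 CPM in a testis. Hbq1a, read only in WT-WT replicate 2 (0.049 CPM), Hbb-y and Ngb stayed under 1 CPM. Hba-x, Hbb-bh1 and Hbb-bh2, which belong to embryonic and fetal stages, and Hbq1b were at 0 in all 9 testes. Adgb (androglobin), a globin of testis, had 19.3 to 75.2 CPM and Cygb (cytoglobin) 4.27 to 8.62 CPM, with r of -0.62 and 0.10 to the globin sum. Mb (myoglobin) reached 2.41 CPM in KI-KI replicate 2 and did not exceed 0.455 elsewhere. Only Adgb and Cygb passed the count filter, and neither was called at an adjusted p under 0.05 in any comparison.

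**Figure D4:**
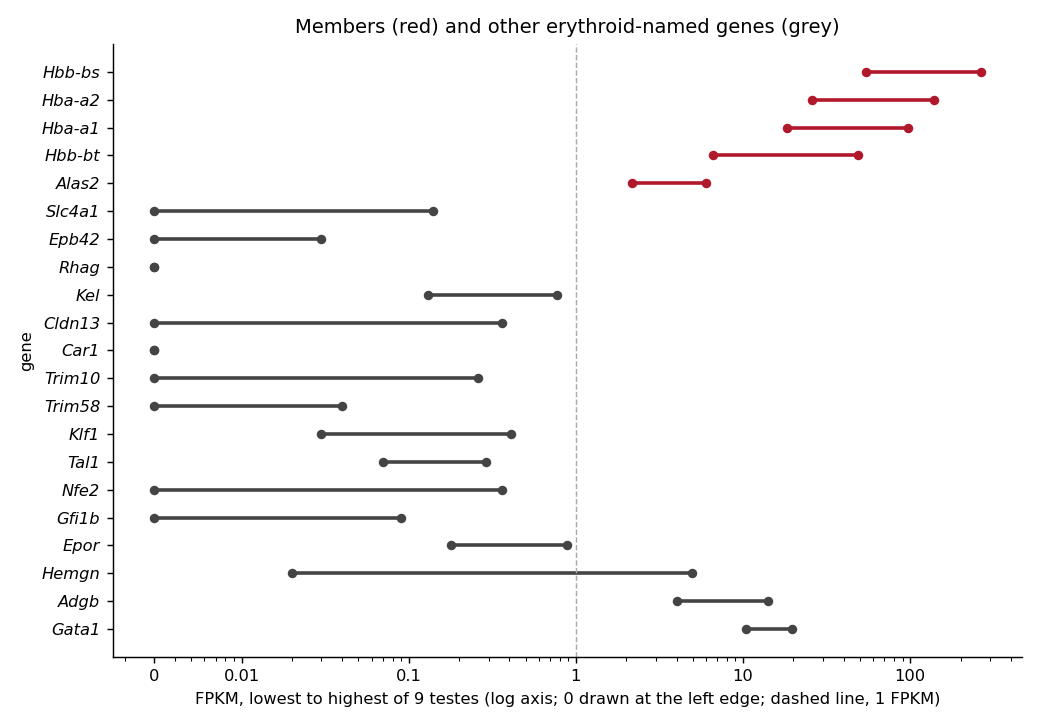
Lowest to highest FPKM over the 9 testes (log axis) of the 5 genes (red) and of 16 other genes named for or known from red cells (grey), picked for the plot after their values were seen. The 4 globins lie between 6.62 and 265 FPKM, while genes such as Slc4a1, Rhag and Car1 lie below 1 FPKM or at 0.

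Hemgn, known from red cell precursors, and Adgb followed a round spermatid score (mean log2 CPM of 16 round spermatid genes) across the testes. Hemgn was picked after its values were seen. Hemgn (hemogen) read 12.6, 0.196 and 0.0965 CPM in WT-WT, 4.89, 0.168 and 0.0526 in WT-KI and 0.0447, 0.857 and 9.33 in KI-KI testes. Adgb read 75.2, 26.6 and 23.6 CPM in WT-WT, 55.1, 40.3 and 19.3 in WT-KI and 32.0, 40.6 and 65.9 in KI-KI testes. Both were highest in 1 testis of each genotype, and those 3 testes had the highest round spermatid scores, 5.96, 5.01 and 5.78. The r with that score was 0.94 for Hemgn and 0.99 for Adgb, and was -0.65 and -0.62 with the globin sum.

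The globin level itself was negatively related to that score. The score was 5.96, 2.56 and 1.298 in WT-WT, 5.01, 3.54 and 0.706 in WT-KI and 2.44, 3.73 and 5.78 in KI-KI testes, so that each genotype held 1 testis with a score over 5. The r of the globin sum with the score was -0.58 (rho -0.58), -0.49 without the 2 testes named above and -0.57 for deviations from the genotype means. With the score as a covariate, the log2 fold changes of the globins in KI-KI against WT-WT lay between -0.79 and -0.65. For Alas2 the r with the score was 0.39.

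**Figure D5:**
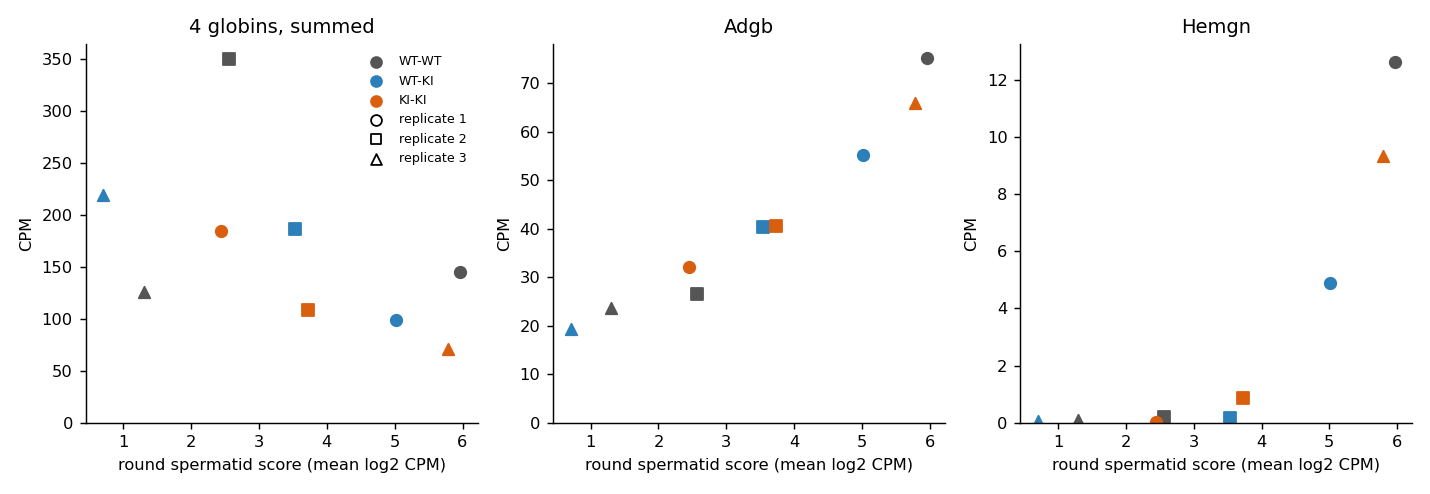
CPM of the 4 globins, of Adgb and of Hemgn against the round spermatid score of each testis, with colour for genotype and shape for replicate. Adgb and Hemgn are highest in the 3 testes with scores over 5, while the globins run from 70.9 to 350 CPM with an r of -0.58.

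Genes of heme synthesis and iron handling had median fold changes near 0. The 14 heme synthesis genes beside Alas2 all passed the count filter, with median log2 fold changes of -0.0050, 0.03 and -0.04 and 0 called in any comparison at an adjusted p under 0.05. Alas1 ranged from 62.4 to 107 FPKM, above Alas2 at 2.18 to 5.98 FPKM in every testis, and Abcb6, Fech and Alad came next by mean CPM in the list. The summed CPM of this list had an r of -0.11 to the globin sum. Of the 16 genes for hemoglobin and heme scavenging and iron, 14 were tested in KI-KI against WT-WT and 0 were called in any comparison at an adjusted p under 0.05, with median log2 fold changes of -0.02, 0.04 and -0.03. Fth1, Hmox2, Ireb2 and Lrp1 led this list. Its summed level had the relation of largest size to the globins among the lists, with an r of -0.77 and -0.59 without the 2 farthest testes, and its members differed in sign. Hmox2, the constitutive heme oxygenase, had an r of -0.57, whereas Hmox1, the inducible one, had 0.70 and Aco1 0.61, the last 2 genes being named after their values were seen.

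The neighbours of the globin and Alas2 loci (Nprl3, Luc7l, Mpg and Snrnp25 were the most abundant of 8) had median log2 fold changes of 0.13, 0.04 and 0.06, 0 called at an adjusted p under 0.05 and an r of 0.28 to the globin sum (0.56 without WT-WT replicate 2 and KI-KI replicate 3, and 0.58 for deviations from the genotype means). Nprl3, whose introns carry the α-globin enhancers, ranged from 45.3 to 56.4 CPM.

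Markers of other blood cells and of vessels were examined beside the globins. Of the 12 neutrophil genes, 5 reached 1 CPM in a testis. S100a8, S100a9, Retnlg, Ngp and Elane, named after their values were seen, were at 0 in all 9 testes. The summed list of 12 lay between 4.73 and 10.6 CPM in WT-WT, 2.79 and 5.42 in WT-KI and 5.31 and 8.31 in KI-KI. The 10 platelet genes summed to 6.81 to 7.58, 6.31 to 7.62 and 7.38 to 8.48 CPM, with Pf4 between 2.59 and 3.26 CPM, and the 9 T and B cell genes to 5.48 to 7.58, 4.97 to 7.52 and 5.12 to 6.26 CPM. Endothelial genes summed to 36.5 to 43.7, 36.3 to 44.7 and 36.9 to 47.3 CPM and macrophage genes to 90.4 to 100.1, 93.3 to 103 and 98.7 to 114 CPM. The r of these sums with the globin sum was -0.21 (neutrophil), -0.43 (platelet), 0.15 (T and B cell), -0.25 (endothelium) and -0.39 (macrophage). Without WT-WT replicate 2 and KI-KI replicate 3 it was 0.017, 0.14, 0.21, -0.28 and -0.074 in that order, so the platelet and neutrophil values changed sign, and for T and B cells it was -0.095 for deviations from the genotype means. Of these lists 4 neutrophil, 4 platelet and 4 T and B cell genes and all endothelial and macrophage genes were tested, 0 were called in any comparison at an adjusted p under 0.05, and the part of residual blood in the globin values was not tested.

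Of the testis lists, Sertoli genes summed to 487 to 598, 572 to 635 and 549 to 609.8 CPM and pachytene spermatocyte genes to 6841 to 7868, 6463 to 7467 and 6914 to 7789 CPM in WT-WT, WT-KI and KI-KI testes, with r of 0.17 and -0.33 to the globin sum (-0.084 and -0.032 without WT-WT replicate 2 and KI-KI replicate 3). Round spermatid genes summed to 99.3 to 1205, 69.0 to 640.5 and 196 to 1069.7 CPM. Leydig genes summed to 228 to 468, 231 to 337 and 335 to 494 CPM, with an r of -0.59 (-0.40 without those 2 testes). No gene of these 4 lists was called at an adjusted p under 0.05 in any comparison.

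Among all other genes, the 10 whose log2 CPM was most like the globin sum over the 9 testes were Nr5a1, Mcf2, Cox18, Trim7, Cpz, Wwc1, Ppp1r1b, Pcmtd2, Sgo2a and B4galt7, with r from 0.90 to 0.86. None of the 10 is in the red cell lists. Nr5a1, the nuclear receptor of steroid-making cells, led with r = 0.898 and varied only between 45.8 and 58.8 CPM. Among 14469 genes with a mean of at least 1 CPM, 0 had an r above 0.9 and 3 had an r below -0.9. The globins among themselves had r of 0.98 to 0.99, where the near-identical genes of a pair also share reads.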

How the data were processed

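RNA of whole testes was sequenced as 150 bp paired-end reads from a poly(A) type mRNA kit. According to the submitters' processing notes, fastp (version 0.18.0), StringTie (version 1.3.1) and DESeq2 were used with the mm39 build; the aligner and the counting tool are not given in the sources used here. The authors deposited an FPKM value from StringTie and an estimated count per gene and testis, not scaled for depth. All per-sample columns were used. The deposited estimated counts were rounded to whole numbers and fitted in R (version 4.3.3) with edgeR (version 4.0.16) for 6 libraries at a time: filterByExpr, TMM, quasi-likelihood test, two-sided, Benjamini-Hochberg adjustment over all genes tested. CPM were TMM-scaled over 9 libraries, and log2 CPM used a prior count of 1. Totals of 17.96 to 24.28 M counts per library set the precision, and the 3-count floor covers counting error only. Nothing beyond the labels says that replicates are separate animals, so p-values measure the spread between these libraries.

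The 5 members and the gene lists were chosen with earlier results of these data known, and the KI-KI against WT-WT contrast on the members was therefore not tested. Named by rule were the 5 members, Piwil4, at most 4 genes of highest mean CPM from each list among those that reach 1 CPM, and the 10 genes most like the globin sum. Likeness to Alas2, and genes said to be named after their values were seen, were added later. The alternatives exchanged the test for DESeq2 (version 1.42.0) or for limma (version 3.58.1) on log2 FPKM with 0.1 or 1 added, where the mean FPKM reached 0.5. Others exchanged the scaling (DESeq2 size factors, library totals, members left out), the filter (none, or 10 counts in each library) or the model (9 libraries fitted jointly, the replicate block, the spermatid score as a covariate), or left out a library. The edgeR step was tested on simulated data. Coordinates are from GENCODE M21 and promoters from RefSeq, both on GRCm38 and not converted to mm39. All 5 members matched both by identifier or symbol. Coding sequences were aligned with Biopython. Some genes of the lists are counted in them but not reported here by name.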

Additional observations from a re-analysis of the deposited data

How the results depend on the processing

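At an adjusted p under 0.05 the number of genes called was 0 under the alternatives run, except with DESeq2, which called 1 gene in KI-KI against WT-WT and 5 genes in KI-KI against WT-KI. Leaving out 1 library at a time left it at 0 in each comparison. The count at an unadjusted p under 0.05 was less settled: 196 genes in KI-KI against WT-WT became 1164 without WT-WT replicate 1 and 771 with the spermatid score as a covariate, 171 in WT-KI against WT-WT became 83 without WT-KI replicate 1 and 316 with the score, and 343 in KI-KI against WT-KI became 1145 without WT-KI replicate 2. Other counts that moved by over 1.5 times were 127 with library totals and 86 without KI-KI replicate 2 in the first comparison, 111 with DESeq2 and 290 in the joint fit of 9 libraries in the second, and 222, 163 and 187 without WT-KI replicate 3, KI-KI replicate 2 and KI-KI replicate 3 in the third. The split of higher to lower genes at an unadjusted p under 0.05 in KI-KI against WT-WT was 71 to 125, 62 to 65 with library totals and 132 to 111 with limma on log2(FPKM + 0.1). In WT-KI against WT-WT it was 53 to 118 and turned to 135 to 74 with limma, and in KI-KI against WT-KI 181 to 162 and 167 to 255. The cause was not tested. The lowest adjusted p of a member over 180 fits of the WT-KI against WT-WT and KI-KI against WT-KI comparisons was 0.641.

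The 4 globins kept a negative log2 fold change in KI-KI against WT-WT and in KI-KI against WT-KI under the alternatives run, with a range of -1.41 to -0.10 and -1.10 to -0.16, and Alas2 stayed positive. In WT-KI against WT-WT, directions turned in 7 of 30 fits without 1 library. Without WT-WT replicate 2 the log2 fold change was 0.34 for Hba-a1, 0.28 for Hba-a2, 0.34 for Hbb-bs and 0.40 for Hbb-bt. Without WT-KI replicate 1 it was 0.02 for Hbb-bt and 0.046 for Alas2, and without WT-WT replicate 1 it was 0.01 for Alas2. The other ends of these ranges were -0.56, -0.59, -0.56, -0.57 and -0.78 in the order Hba-a1, Hba-a2, Hbb-bs, Hbb-bt and Alas2.

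With the replicate block the unadjusted count was 52, 181 and 131 genes in the 3 comparisons, the adjusted count stayed 0, and the globins had log2 fold changes of -0.91 to -0.66 in KI-KI against WT-WT. Deviations of same-numbered libraries correlated at -0.80, 0.08 and -0.79 in KI-KI against WT-WT, at 0.79, -0.14 and 0.86 in WT-KI against WT-WT and at -0.72, -0.25 and -0.81 in KI-KI against WT-KI, so the numbers were not taken to pair the samples.

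The 3 libraries per genotype and a spread of 37.1% to 60.2% of the mean globin CPM within a genotype limit what these data can show. Counts of the single twin genes depend on how shared reads were assigned.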

Other observations

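Alas2 had its own company in the testis. The genes whose log2 CPM was most like it over the 9 testes, among 14469 genes with a mean of at least 1 CPM, were an unnamed gene (ENSMUSG00000049091, r = 0.972), Insl3 (r = 0.966), Mbp, Fabp3, Gm8297, Spin2e, Eps8l3, Gm3373, Ube2q1 and Them6 (r = 0.925). This search was added after the values were seen, and 30 genes had an r above 0.9 and 51 an r below -0.9. Insl3, the insulin-like hormone of Leydig cells, read 119, 55.4 and 25.0 CPM in WT-WT, 20.1, 89.2 and 29.6 in WT-KI and 86.2, 59.4 and 99.7 in KI-KI testes. The 3 testes with the least Alas2 (WT-WT replicate 3, WT-KI replicates 1 and 3) were also the 3 with the least Insl3. The values thus fell into 3 low and 6 high testes, and over the 6 high ones alone the r was 0.745, a subset also chosen after the values were seen. The r of Alas2 with Insl3 was 0.98 without WT-WT replicate 2 and KI-KI replicate 3 and 0.96 for deviations from the genotype means, while that of the globin sum with Insl3 was 0.02, 0.36 without the same testes and 0.23 for deviations from the genotype means.

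Other Leydig genes were less like Alas2. Hsd3b6, a steroid dehydrogenase of adult Leydig cells, had an r of 0.87 with Alas2 and read 60.8, 31.0 and 20.4 CPM in WT-WT, 14.4, 40.4 and 28.3 in WT-KI and 50.6, 59.6 and 65.9 in KI-KI testes. The r with Alas2 was 0.53 for Lhcgr, 0.38 for Hsd3b1, 0.20 for Cyp11a1, 0.11 for Nr5a1, 0.08 for Cyp17a1 and -0.45 for Star. Cyp17a1, which makes androgen precursors, was picked after its values were seen and had an r of -0.84 with the globin sum, at 53.4, 4.55 and 9.17 CPM in WT-WT, 56.8, 5.81 and 4.99 in WT-KI and 10.1, 96.7 and 87.4 in KI-KI testes. These are descriptions over 9 libraries, and which cells carry Alas2 was not tested.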
